A study of Mus musculus with 15 samples.

Results

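The histone gene clusters were followed here in the scraped mucosa of the most distal 30 mm of the descending colon of female Balb/cJ mice with chronic colitis. The members are the 63 microarray probes, for 53 gene names, whose name in the scanner files starts with Hist1h, Hist2h, Hist3h or Hist4h and that lay well above background on at least 5 of 15 arrays. They were found among 68 probes with such names, for 56 gene names, and among 33466 probes tested in all, for 22015 gene names. They comprised 8 probes for linker histone H1, 18 for H2A, 16 for H2B, 10 for H3 and 11 for H4. Of these, 45 belong to the Hist1 cluster, 13 to Hist2, 4 to Hist3 and 1 to Hist4. The rule for members used names and detection calls, but the members were chosen with earlier results of these data known.

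The 3 groups held 5 mice each, with 1 mouse per 1-colour Agilent array. Colitis was induced with dextran sodium sulfate (DSS), a sulfated polysaccharide that injures the colon epithelium, given at 4% in the drinking water in 3 cycles of 4 days with washouts of 3 days, starting at 8 weeks of age. The water group had plain drinking water, the DSS vehicle group received DSS and the vehicle of the drug, and the DSS filgotinib group received DSS and filgotinib, an inhibitor that prefers the kinase JAK1, at 30 mg/kg daily by gavage. Whether the water mice were dosed with vehicle differs between the sources, since their compound label reads vehicle control and the design mentions drinking water only. Filgotinib was given only together with DSS, so its effect without colitis was not measured.

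Nucleosomes wrap DNA around the core histones H2A, H2B, H3 and H4, and linker histone H1 binds where the DNA enters and leaves them. The replication-dependent genes for these proteins lie in clusters and are transcribed mainly in S phase, so that new histones match new DNA. Their mRNAs typically end in a conserved stem-loop, bound by the protein SLBP, in place of a poly(A) tail, and they decay when replication stops. In the colon, S phase is found chiefly in the dividing cells of the crypt base and in activated lymphoid cells. Labelling that primes on poly(A) favours transcripts with a tail, and the share of tailed transcripts was not measured.

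Values are log2 of the processed signal over the 75th percentile of the array. Levels are compared between mice for 1 probe and never between probes. A member was called where the limma fit over all probes gave a Benjamini-Hochberg adjusted p under 0.05, and "rose" and "fell" mark such calls. The 75th percentile of the arrays lay between 684 and 813 units of fluorescence in the water group, between 570 and 667 in the DSS vehicle group and between 552 and 663 in the DSS filgotinib group. Per array, 50.2% to 62.1% of probes passed the scanner's background call. DSS vehicle mouse 3 and DSS filgotinib mouse 3 were each alone on their slide and scan day.

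Of the 63 members, 57 were well above background on all 15 arrays. Hist1h2ad and Hist2h2aa1 lay just inside the detection threshold with 5 arrays each, no candidate had exactly 4, and the candidates left out (Hist1h2al, Hist1h2bp, Hist3h2bb-ps and the second probes of Hist1h2ai and Hist2h2ac) had 2 or fewer. Hist2h2ab passed mainly through the water group, where 5 of 5 arrays showed it against 0 of 5 in the DSS vehicle group. Histone genes are close copies of each other. For 22 members the array design listed several RefSeq mRNAs or the probe shared 30 or more bases with a probe of another histone gene, so that their values may pool several genes. The other 41 members had no more than 1 RefSeq mRNA listed and shared fewer than 30 bases. Some of these 41 had none listed, so their gene rests on the probe name. They include probes of Hist1h1c, Hist1h1d, Hist1h2ac, Hist1h2ae, Hist1h2bg, Hist2h2aa1, Hist2h2bb, Hist2h3c1, Hist2h3c2, Hist3h2a and Hist3h2ba.

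Some probes cover the stem-loop. The stem-loop consensus of histone mRNAs, searched on both strands with any base in the paired positions that vary, stood in 5 member probes and in 6 of all 56605 probes, always on the sense strand. The stretches around it are printed because they show that these 5 probes cover the stem-loop. Whether the transcripts they read end there or carry a tail was not measured. They run 5′ to 3′ with the stem-loop letters in capitals, and positions are those of build mm9 in the scanner files.
Hist1h2bf (chr13:23665629-23665656, minus strand): acccaaaGGCTCTTTTCAGAGCCaccta
Hist2h2bb (chr3:96074088-96074115, plus strand): ccaaaaGGCTCTTTTCAGAGCCacttta
Hist1h3a (chr13:23853756-23853783, minus strand): ttaaccaaaGGCTCTTTTCAGAGCCaca
Hist1h3i (chr13:21874784-21874811, minus strand): aacaaaaGGCTCTTTTCAGAGCCccctc
Hist1h4m (chr13:21903992-21904019, plus strand): actaaaGGCCCTTTTCAGGGCCatccaa

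In DSS vehicle mice the histone clusters were lower than in water mice. Of 63 members, 32 fell and 0 rose, where over all probes tested 8.78% fell and 8.72% rose. At an unadjusted p under 0.05, limma had 42 members lower and 0 higher, beside 15.2% and 17.5% of all probes. The median log2 fold change of the members was -0.41, beside 0.02 over all probes. In 25 members the 5 DSS vehicle values all lay below the 5 water values, which held for 6.75% of all probes, and in 0 members the order was reversed (8.3% of all probes). The 32 and the 25 include Hist2h2ab, which passed the detection filter mainly through the water group and lends no support. By class, 4 of 8 H1 probes, 13 of 18 H2A, 7 of 16 H2B, 4 of 10 H3 and 4 of 11 H4 probes fell. In bulk tissue, fewer cells of a type and less RNA per cell cannot be told apart.

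With filgotinib the clusters were higher than in DSS vehicle mice. Of 63 members, 42 rose and 0 fell (5.58% and 4.28% of all probes), with 55 higher and 1 lower at an unadjusted p under 0.05 in limma (15.2% and 12.3% of all probes). The median log2 fold change was 0.61, beside -0.01 over all probes, and 62 of the 63 fitted changes lay above 0, the exception being Hist1h4h. In 26 members all filgotinib values lay above all DSS vehicle values, against 4.38% of all probes, and in 0 members they lay below (3.11%). The 42 and the 26 again include Hist2h2ab, which lends no support. By class, 4 of 8 H1 probes, 15 of 18 H2A, 9 of 16 H2B, 6 of 10 H3 and 8 of 11 H4 probes rose. This comparison and the one above share the DSS vehicle arrays, so a chance deviation of those mice would enter both with opposite sign.

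Against water, filgotinib-treated mice had 4 members that rose and 0 that fell (4.56% and 4.06% of all probes), with 19 higher and 1 lower at an unadjusted p under 0.05 (15.3% and 12.1% of all probes). The adjusted count of 4 of 63 is near the share of all probes. The median log2 fold change was 0.21, beside 0.02 over all probes, and with slide as a fixed block it was 0.42. In 0 members did the values of the groups separate upwards or downwards (5.32% and 3.65% of all probes). The 4 that rose were Hist1h2bq, Hist1h1t, 1 of the Hist1h2bb probes and Hist1h2bc. These 4 calls were not stable: the count was 0 with median scaling, with slide as a fixed block and with only the arrays of these groups, and 0 without filgotinib mouse 1, 4 or 5 or water mouse 2 or 5, against 9 without filgotinib mouse 3. By class, the median log2 fold change was 0.15 for H1, -0.01 for H2A, 0.43 for H2B, 0.29 for H3 and 0.19 for H4.

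The median over the 63 members, taken for each mouse as the log2 distance from the water mean, summarised this per animal. It was 0.12, 0.02, -0.05, 0.000183 and -0.11 in water mice 1 to 5. It was -0.46, -0.30, -0.10, -0.46 and -0.49 in DSS vehicle mice 1 to 5, and 0.22, 0.22, 0.08, 0.27 and 0.25 in DSS filgotinib mice 1 to 5. All DSS filgotinib mice lay above all DSS vehicle mice, DSS vehicle mouse 3 was closest to the water mice, and its value of -0.10 lay inside their range. Without that mouse, 34 members fell in DSS vehicle against water, and 45 rose with filgotinib against DSS vehicle.

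**Figure D1:**
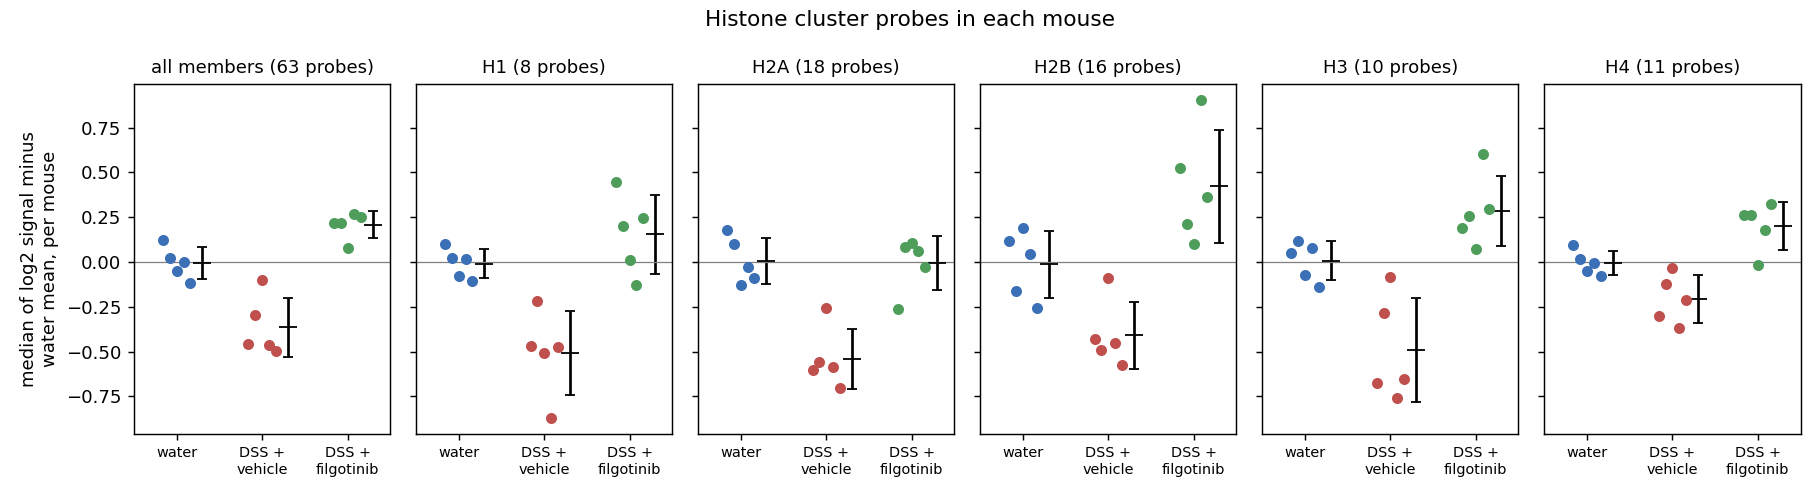
Median log2 signal of the member probes in each mouse, as the distance from the water mean of each probe (vertical axis), by group, for all 63 members and for each class. Points are mice and bars are the mean and SD of 5 mice. For all members the DSS vehicle mice sit between -0.49 and -0.10 and the DSS filgotinib mice between 0.08 and 0.27.

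Slides bear on the comparison with water, since only slide 4 held both DSS vehicle (1 mouse) and water (2 mice). Within that slide the median member change was -0.23 and 46 of 63 members lay below 0, as did 40.8% of all probes. With slide as a fixed block, which rests on that slide, 1 member fell and 1 rose in DSS vehicle against water. Over all 33466 probes, 57 fell and 32 rose in that fit. The member that fell was Hist2h2bb, by its probe with the stem-loop, at -0.95 on the log2 scale (limma adjusted p = 0.0456), and the one that rose was Hist1h4m at 1.92 (limma adjusted p = 0.0357). With slide as a random block 29 members fell, as did 2585 of all 33466 probes. Slide 2 held 2 DSS filgotinib and 3 DSS vehicle mice. Within it 62 of 63 members were higher with filgotinib, as were 49.4% of all probes. The member median was 0.66, beside -0.005 over all probes. With the fixed slide block 23 members rose in this comparison, against 42 without it. In that fit 307 of all 33466 probes rose. No slide held both water and DSS filgotinib mice, which sat on slides 1 and 4 and on slides 2, 3 and 6.

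Linker histones gave the largest fall of all members. Hist1h1b, a replication-dependent H1 of dividing cells, was at 2.67, 2.69, 1.85, 2.27 and 2.37 in water mice 1 to 5, at 0.25, -0.39, 1.25, 0.57 and 0.51 in DSS vehicle mice and at 0.61, 1.94, 2.09, 1.18 and 1.16 in DSS filgotinib mice. Every DSS vehicle mouse lay below every water mouse, and the DSS filgotinib mice spread across both ranges. The fall in DSS vehicle mice was 3.81-fold (-1.93 ± 0.31 SE on the log2 scale, limma adjusted p = 0.00131). With filgotinib the gene differed by 0.96 ± 0.31 SE from DSS vehicle (limma adjusted p = 0.064) and by -0.97 ± 0.31 SE from water (limma adjusted p = 0.064), and neither passed.

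Hist1h1a, another replication-dependent H1, was at -1.43, -1.23, -1.89, -1.57 and -1.57 in water mice, at -2.78, -2.52, -2.24, -2.93 and -2.82 in DSS vehicle mice and at -2.12, -1.53, -1.64, -1.76 and -1.67 in DSS filgotinib mice. The DSS vehicle values lay below all others. It fell 2.18-fold with DSS (limma adjusted p = 0.000417) and rose 1.88-fold with filgotinib against DSS vehicle (limma adjusted p = 0.0036).

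Hist1h1d, also an H1 of the Hist1 cluster, was read by probes whose mm9 starts lay 2335 bases apart, and both moved in the same directions by unequal amounts. The change with DSS was -0.36 ± 0.12 SE by one and -1.04 ± 0.22 SE by the other (limma adjusted p = 0.0458 and 0.00673). With filgotinib against DSS vehicle the changes were 0.48 ± 0.12 and 1.39 ± 0.22 SE (limma adjusted p = 0.021 and 0.00327). The array design listed no RefSeq mRNA for the probe with the larger change.

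Hist1h1c and Hist1h1e are H1 genes whose products are common in many tissues. The brighter Hist1h1c probe was at 5.91, 5.39, 6.05, 5.81 and 5.58 in water mice, at 5.34, 5.61, 5.26, 5.01 and 5.40 in DSS vehicle mice and at 6.38, 5.97, 5.78, 5.64 and 6.04 in DSS filgotinib mice. Filgotinib mice lay above all DSS vehicle mice, while water and DSS vehicle mice overlapped. It rose 1.56-fold with filgotinib against DSS vehicle (limma adjusted p = 0.0207), and its change with DSS was -0.43 ± 0.16 SE (limma adjusted p = 0.0724). The dimmer Hist1h1c probe, 688 bases away, had 0.60 ± 0.20 SE with filgotinib and did not pass (limma adjusted p = 0.0656). For the brighter probe the array design listed no RefSeq mRNA, and for the dimmer it listed 1. Hist1h1e differed by -0.04 ± 0.09 SE with DSS and 0.22 ± 0.09 SE with filgotinib, with limma adjusted p = 0.799 and 0.133. Hist1h1t, the H1 of the testis, read 0.06 with DSS (limma adjusted p = 0.876) and rose 1.76-fold in filgotinib mice against water (limma adjusted p = 0.0426).

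The H2A class had the highest share of falling members, 13 of 18, and all 18 fitted changes with DSS lay below 0. Several of its probes sit on the end of the coding sequence, which the genes share almost letter for letter. The probe sequences are printed to show how little separates them. Capitals mark the bases that differ from the Hist1h2ah probe in an ungapped alignment over their overlap of 54 to 60 bases, and all run 5′ to 3′ on the sense strand in build mm9.
Hist1h2ah (chr13:22127035-22127094, minus strand): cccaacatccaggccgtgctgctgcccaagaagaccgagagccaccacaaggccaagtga
Hist1h2aa (chr13:24026659-24026718, plus strand): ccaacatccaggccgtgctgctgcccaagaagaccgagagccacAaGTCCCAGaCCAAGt
Hist1h2af (chr13:23626113-23626172, plus strand): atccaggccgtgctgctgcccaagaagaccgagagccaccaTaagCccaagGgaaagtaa
Hist1h2ak (chr13:21845304-21845363, minus strand): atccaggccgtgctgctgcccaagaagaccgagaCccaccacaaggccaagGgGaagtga
Hist1h2an (chr13:21902669-21902728, plus strand): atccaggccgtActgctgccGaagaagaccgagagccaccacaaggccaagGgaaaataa
Hist2h2aa2 (chr3:96043781-96043840, minus strand): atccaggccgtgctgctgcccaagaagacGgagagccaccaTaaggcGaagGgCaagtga
Hist2h2ac (chr3:96024378-96024437, minus strand): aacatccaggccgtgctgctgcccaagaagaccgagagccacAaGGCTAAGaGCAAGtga
The Hist1h2af, Hist1h2ak and Hist1h2an probes differed from that of Hist1h2ah at 3 of 54 aligned bases, and the Hist2h2aa2 probe at 5 of 54. The Hist1h2aa and Hist2h2ac probes differed at 13 of 59 and 13 of 57, all near the end of the coding sequence. Their signals cannot be assigned to single genes.

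The Hist1h2ah probe, for a replication-dependent H2A, was at 7.97, 7.82, 7.63, 7.74 and 7.71 in water mice, at 7.17, 7.20, 7.61, 7.28 and 7.23 in DSS vehicle mice and at 7.45, 7.94, 7.91, 7.80 and 7.69 in DSS filgotinib mice. DSS vehicle mouse 3 stood above the other DSS vehicle mice and just under the lowest water mouse. The fall was 1.39-fold (limma adjusted p = 0.00876) and the rise with filgotinib 1.38-fold (limma adjusted p = 0.0175), and filgotinib differed from water by -0.02 ± 0.11 SE (limma adjusted p = 0.945). Hist1h2aa, the gene of the testis H2A, gave changes of -0.41 with DSS and 0.40 with filgotinib, close to those of Hist1h2ah, from a probe that shares 45 bases in a row with another histone gene's probe.

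Hist1h2ab carries a probe with little shared sequence that reads into the first letters of the stem-loop. It was at 4.56, 4.59, 4.12, 4.34 and 4.33 in water mice, at 2.75, 2.35, 3.65, 2.86 and 2.80 in DSS vehicle mice and at 3.35, 4.47, 4.58, 4.04 and 3.93 in DSS filgotinib mice. All DSS vehicle mice lay below all water mice, and DSS vehicle mouse 3 overlapped the filgotinib mice. It fell 2.84-fold (limma adjusted p = 0.00128) and rose 2.29-fold with filgotinib against DSS vehicle (limma adjusted p = 0.00898).

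The remaining H2A genes named by size of change moved in the same directions. Hist1h2ao fell 2.23-fold and Hist1h2ag 2.11-fold with DSS, and they rose 1.98-fold and 1.85-fold with filgotinib (limma adjusted p = 0.00432, 0.00252, 0.0173 and 0.0137). Both probes share 34 or more bases with a probe of another histone gene. Hist1h2ai fell 1.7-fold and rose 2.29-fold (limma adjusted p = 0.0338 and 0.00742). The fall of Hist1h2ai did not pass in fits that left out DSS vehicle mouse 1, 4 or 5, nor when water mouse 1, 2 or 4 was left out. Hist1h2ac rose 2.4-fold with filgotinib (limma adjusted p = 0.0205) and had -0.86 ± 0.30 SE with DSS (limma adjusted p = 0.0664).

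Hist1h2ad rose 3.01-fold (limma adjusted p = 0.0249), but only 1 of 5 DSS vehicle arrays and 2 of 5 filgotinib arrays were well above background for it. That call was lost without DSS vehicle mouse 4 or 5 or filgotinib mouse 1 or 5. Hist2h2aa1, well above background on 0 of 5 DSS vehicle arrays, passed in neither comparison (limma adjusted p = 0.467 and 0.53). Hist2h2ab was well above background on 5 of 5 water arrays, 0 of 5 DSS vehicle arrays and 1 of 5 filgotinib arrays, at means of -4.45, -5.27 and -4.48. It is among the 32 that fell and the 42 that rose, and among the 25 and 26 members whose groups did not overlap. It passed the detection filter through the water group, where it is high. Its calls and its separation therefore support nothing, and no fold is given. Hist3h2a, a lone H2A gene of the Hist3 cluster, fell by its brighter probe (-0.59 ± 0.09 SE, limma adjusted p = 0.00105) and not by the other, 567 bases away (-0.20 ± 0.19 SE, limma adjusted p = 0.493). No RefSeq mRNA was listed for that dimmer probe.

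H2B divided into probes that fell and probes that did not. Hist2h2bb was read by a probe that holds the stem-loop and by a probe whose mm9 start lies 8698 bases away, for which the array design lists no RefSeq mRNA. The stem-loop probe was at 1.06, 1.24, 0.85, 1.18 and 0.76 in water mice, at -0.09, -0.14, 0.52, 0.01 and -0.04 in DSS vehicle mice and at 1.13, 1.43, 1.20, 1.32 and 1.22 in DSS filgotinib mice. The DSS vehicle mice lay below all others, with mouse 3 highest among them. It fell 1.96-fold with DSS (limma adjusted p = 0.000371) and rose 2.31-fold with filgotinib (limma adjusted p = 0.000268). The distant probe rose 2.32-fold with filgotinib (limma adjusted p = 0.0212) and had -0.65 ± 0.29 SE with DSS (limma adjusted p = 0.139).

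Hist1h2bf, whose probe also holds the stem-loop, was at -0.30, -0.04, -0.78, -0.51 and -0.74 in water mice, at -1.54, -1.40, -0.74, -1.52 and -1.79 in DSS vehicle mice and at -0.67, -0.07, -0.38, -0.04 and -0.14 in DSS filgotinib mice. DSS vehicle mouse 3 lay within the water range, and all filgotinib mice lay above all DSS vehicle mice. It fell 1.9-fold and rose 2.2-fold (limma adjusted p = 0.00605 and 0.00477). Both Hist3h2ba probes, for the H2B of the Hist3 cluster, fell, by 2-fold and 1.82-fold, and rose with filgotinib by 1.92-fold and 1.7-fold (limma adjusted p = 0.00469, 0.00611, 0.0119 and 0.0193). Both Hist2h2be probes did likewise, at -0.53 and -0.54 with DSS and 0.58 and 0.69 with filgotinib on the log2 scale.

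A group of H2B probes did not follow. Hist1h2bc, a replication-dependent H2B, was at 6.45, 5.97, 6.24, 6.20 and 5.93 in water mice, at 6.63, 6.51, 6.28, 6.24 and 6.19 in DSS vehicle mice and at 6.75, 6.31, 6.60, 7.23 and 6.70 in DSS filgotinib mice. Water and DSS vehicle mice overlapped, and filgotinib mice 1, 4 and 5 lay above all of them. It differed by 0.21 ± 0.15 SE with DSS (limma adjusted p = 0.359) and rose 1.47-fold in filgotinib mice against water (limma adjusted p = 0.0381). The fitted changes with DSS of Hist1h2ba, Hist1h2bb (both probes), Hist1h2bm and Hist1h2bn lay between 0.05 and 0.26, and none of these passed. Of these, the dimmer Hist1h2bb probe rose 1.56-fold in filgotinib mice against water (limma adjusted p = 0.0293), and the brighter, 123 bases away, had 0.46 ± 0.17 SE there (limma adjusted p = 0.101). For Hist1h2bm and the brighter Hist1h2bb probe the array design lists 4 RefSeq mRNAs each. All these probes and Hist1h2bc were highest in mouse 4 among the filgotinib mice. Whether they read separate genes was not tested.

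Hist1h2bq, an H2B of the Hist1 cluster for which the array design lists 2 RefSeq mRNAs, had the largest rise with filgotinib of all members. It was at -2.09, -1.25, -0.91, -0.46 and -1.44 in water mice, at -2.19, -2.51, -1.26, -2.02 and -2.25 in DSS vehicle mice and at 0.15, 0.16, -1.21, 0.52 and 0.90 in DSS filgotinib mice. Filgotinib mice 1, 2, 4 and 5 lay above every other mouse, while mouse 3, at -1.21, lay within the water range. The rise was 4.45-fold against DSS vehicle (limma adjusted p = 0.00486) and 2.53-fold against water (limma adjusted p = 0.0409), and the change with DSS was -0.82 ± 0.37 SE (limma adjusted p = 0.145).

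**Figure D2:**
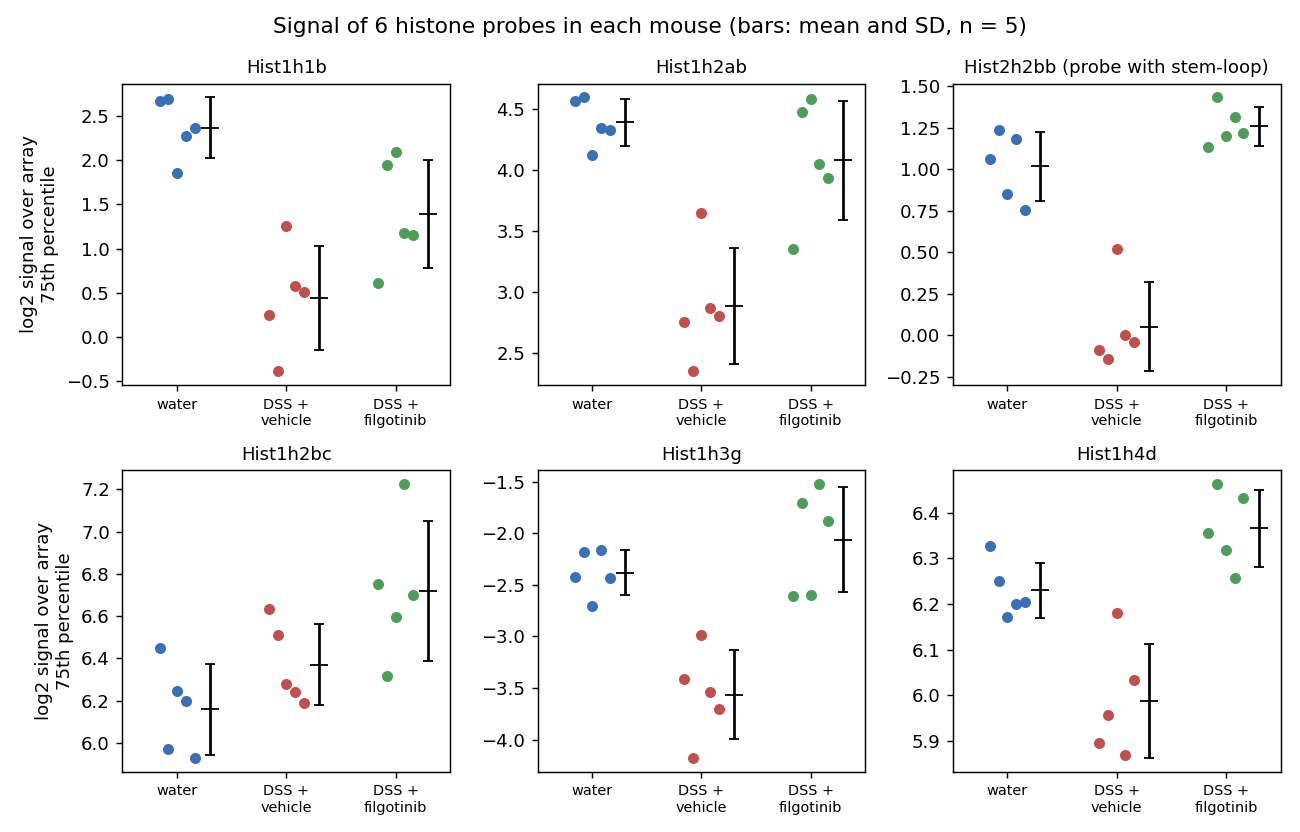
Signal of 6 probes in each mouse as log2 over the 75th percentile of the array (vertical axis, own scale per panel), by group, with bars for the mean and SD of 5 mice. Hist1h1b, Hist1h2ab, Hist2h2bb, Hist1h3g and Hist1h4d are lower in DSS vehicle mice than in water mice, while Hist1h2bc is not.

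Among H3 genes, Hist1h3g, a replication-dependent H3, was at -2.43, -2.18, -2.70, -2.16 and -2.44 in water mice, at -3.41, -4.18, -2.99, -3.54 and -3.70 in DSS vehicle mice and at -2.60, -1.71, -2.60, -1.52 and -1.89 in DSS filgotinib mice. The DSS vehicle mice lay below all others. It fell 2.27-fold (limma adjusted p = 0.00479) and rose 2.83-fold with filgotinib (limma adjusted p = 0.00303). Hist1h3c was at 2.66, 2.87, 2.44, 2.49 and 2.56 in water mice, at 1.66, 1.64, 2.12, 1.65 and 1.58 in DSS vehicle mice and at 2.13, 2.73, 2.72, 2.79 and 2.60 in DSS filgotinib mice, with no overlap between DSS vehicle and either other group. It fell 1.83-fold and rose 1.82-fold (limma adjusted p = 0.0011 and 0.00289).

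The stem-loop probe of Hist1h3i fell 1.82-fold and rose 2.11-fold (limma adjusted p = 0.00951 and 0.00598), while that of Hist1h3a had -0.42 ± 0.27 SE with DSS and 0.75 ± 0.27 SE with filgotinib and passed in neither (limma adjusted p = 0.304 and 0.0919). Hist1h3d, the brightest H3 probe, for which the design lists several mRNAs, rose 1.28-fold with filgotinib (limma adjusted p = 0.0107) and had -0.16 ± 0.07 SE with DSS (limma adjusted p = 0.151). Hist2h3c1 and both Hist2h3c2 probes, named for H3 genes of the Hist2 cluster, had changes with DSS between 0.11 and 0.29, none called. For none of these probes did the array design list a RefSeq mRNA, so whether they read these genes was not tested.

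The H4 probes had a median change of -0.22 with DSS and 0.43 with filgotinib. The brightest, Hist1h4d, was at 6.33, 6.25, 6.17, 6.20 and 6.20 in water mice, at 5.90, 5.96, 6.18, 5.87 and 6.03 in DSS vehicle mice and at 6.36, 6.46, 6.32, 6.26 and 6.43 in DSS filgotinib mice. DSS vehicle mouse 3 just overlapped the water range, and all filgotinib mice lay above all DSS vehicle mice. It fell 1.18-fold (limma adjusted p = 0.0267) and rose 1.3-fold (limma adjusted p = 0.0059). Its fall did not pass in fits that left out DSS vehicle mouse 1, 2 or 4, nor when either of water mice 1 and 2 was left out. Of the Hist1h4k probes, 216 bases apart, the brighter fell (-0.28 ± 0.07 SE, limma adjusted p = 0.0146) and the other did not pass (-0.22 ± 0.09 SE, limma adjusted p = 0.101), and both rose with filgotinib (0.43 and 0.45, limma adjusted p = 0.00353 and 0.00917).

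Hist1h4h, Hist1h4i and Hist1h4m are the H4 genes whose fitted change with DSS lay above 0. Hist1h4h had 0.13 ± 0.08 SE with DSS and -0.21 ± 0.08 SE with filgotinib (limma adjusted p = 0.298 and 0.116). Hist1h4i had 0.25 ± 0.29 SE with DSS and 0.41 ± 0.29 SE with filgotinib against DSS vehicle (limma adjusted p = 0.591 and 0.392). Hist1h4m, whose probe holds the stem-loop, was at -1.22, -1.46, -1.52, -1.32 and -1.85 in water mice, at -1.04, 0.23, -0.54, -1.24 and -1.64 in DSS vehicle mice and at -0.06, -0.55, -1.81, 0.40 and 0.20 in DSS filgotinib mice. The water mice lay close together, and both DSS groups spread widely around and above them. Its changes were 0.63 ± 0.39 SE with DSS and 1.11 ± 0.39 SE for filgotinib against water (limma adjusted p = 0.284 and 0.0877).

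**Figure D3:**
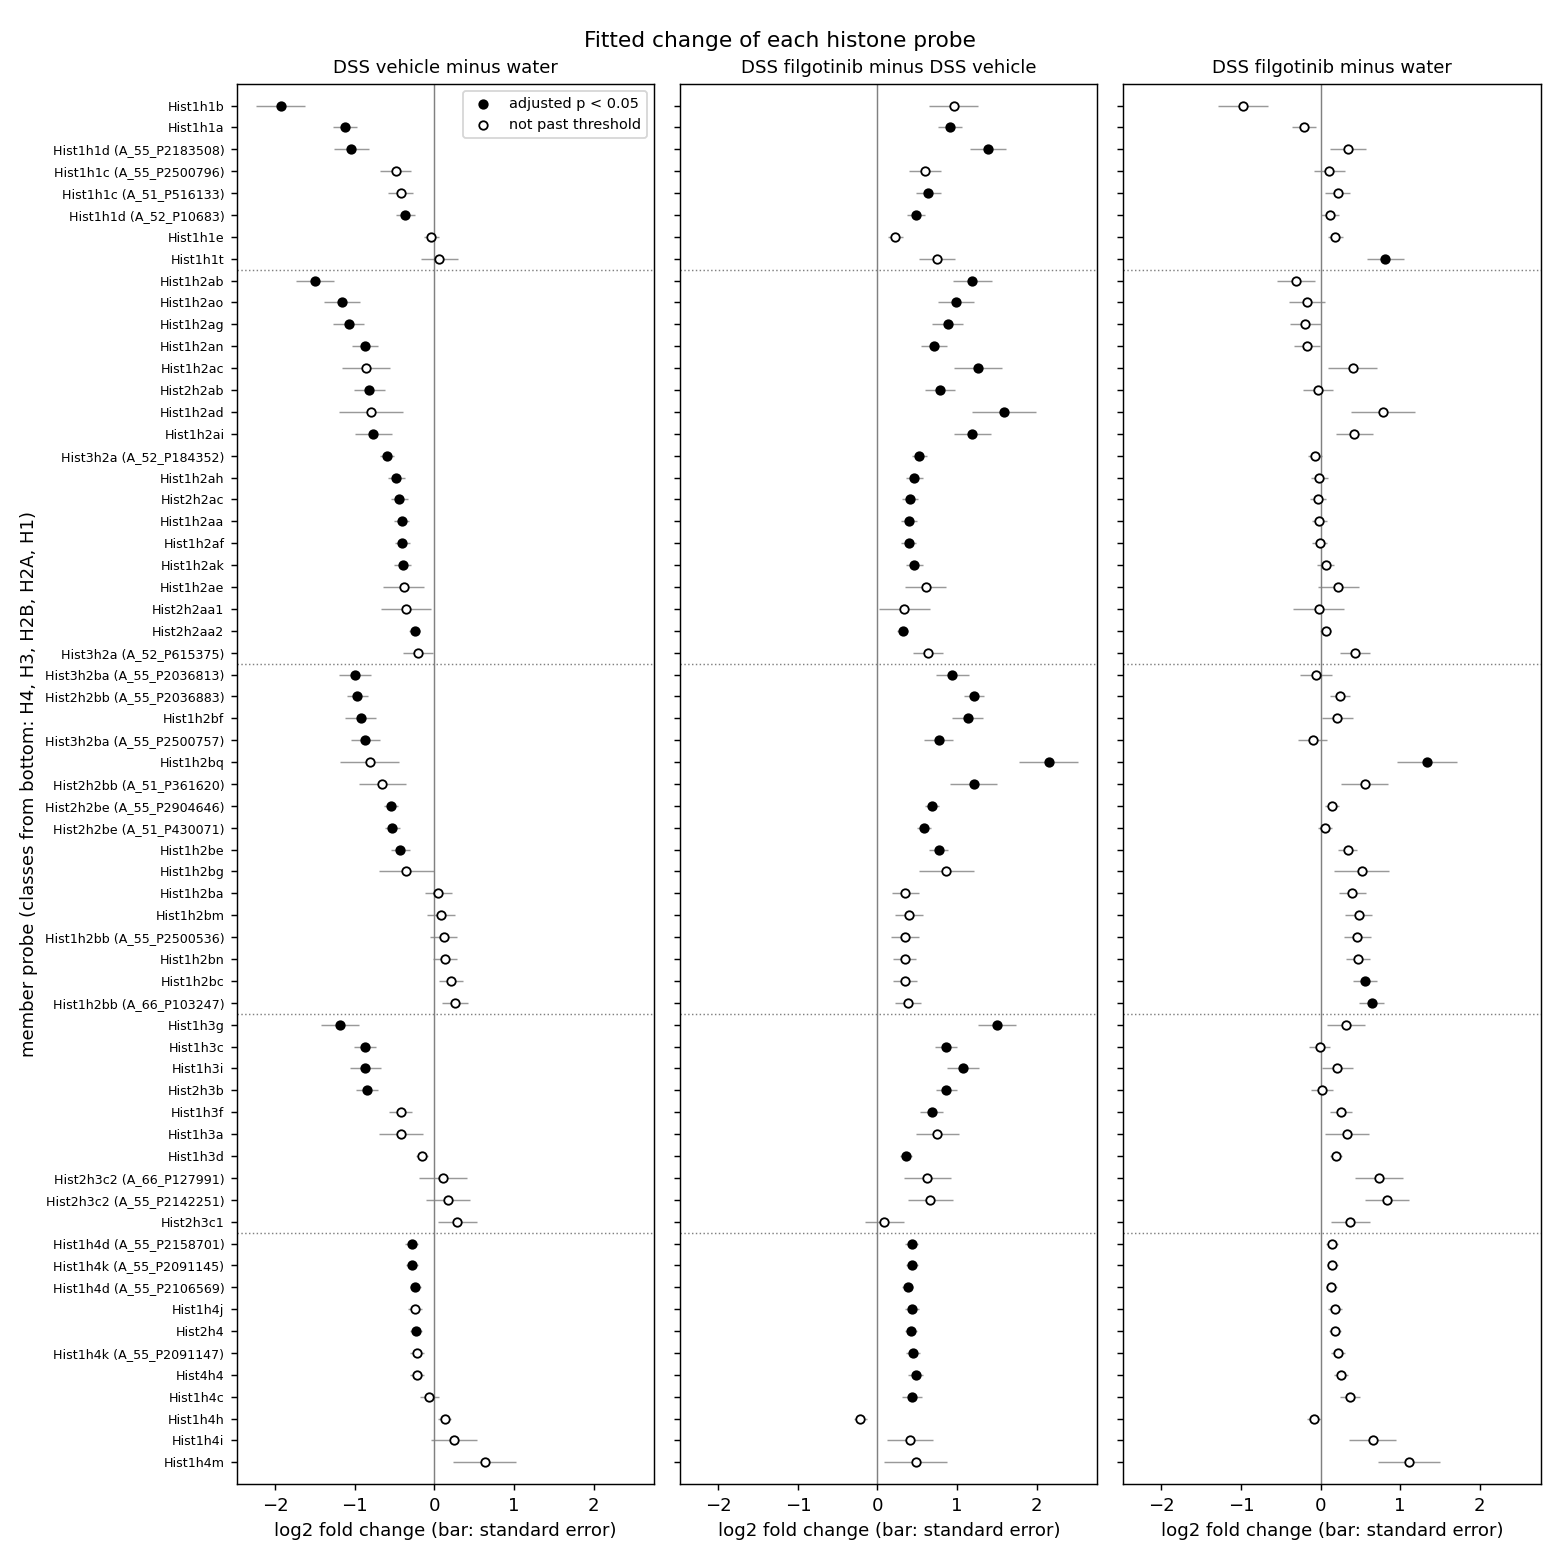
Fitted log2 fold change of each of the 63 member probes (horizontal axis) with its standard error, in the 3 comparisons, grouped by class. Filled points passed an adjusted p under 0.05. With DSS 32 are filled, all below 0, with filgotinib against DSS vehicle 42 are filled, all above 0, and against water 4 are filled.

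Probes that hold the stem-loop or run into its first letters numbered 9. Of these, 6 fell with DSS and 6 rose with filgotinib against DSS vehicle. Their median changes were -0.87 and 1.08, beside -0.37 and 0.50 in the other 54 members, of which 26 fell and 36 rose. The 41 members not marked as pooling several genes had medians of -0.42 with DSS, 0.67 with filgotinib and 0.24 for filgotinib against water. Some of these have no RefSeq mRNA listed. Of the 41, 18 fell, 23 rose and 3 rose respectively. The medians of the 22 members that may pool several genes were -0.40, 0.44 and 0.15, with 14 falling, 19 rising and 1 rising. Over all probes the shares were 8.78% falling, 5.58% rising and 4.56% rising in the same order. The calls against water were not stable, as given above.

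Many promoters of these genes carry letters typical of S-phase histone genes. RefSeq promoters of GRCm38.p6, covering 250 bases before and 50 after the start, were matched for 48 of the 53 gene names. The octamer ATTTGCAT, bound by OCT1 in H2B promoters, was searched on both strands and stood in 5 of 10 H2B and 7 of 17 H2A promoters, in 0 of 6 H1, 0 of 7 H3 and 0 of 8 H4 promoters, and in 1.74% of all 32851 promoters of that length. CCAAT stood in 42 of 48 member promoters and 37.4% of all, and TATAAA in 28 of 48 and 13.6% of all, both strands counted. By class, CCAAT stood in every H1, H2A, H2B and H3 promoter but in only 2 of 8 H4 promoters (25%). TATAAA was least frequent in H3, with 2 of 7 promoters. CCAAT can share its last letters with the octamer, and in the promoters printed here 0 matches of different motifs overlap. The promoters of Hist1h2ab, the H2A probe with the largest fall, and of Hist2h2bb, whose stem-loop probe had the lowest adjusted p of all members with DSS and with filgotinib, are printed with the letters of any of the 3 motifs in capitals.
Hist1h2ab (chr13:23750838-23751137, plus strand): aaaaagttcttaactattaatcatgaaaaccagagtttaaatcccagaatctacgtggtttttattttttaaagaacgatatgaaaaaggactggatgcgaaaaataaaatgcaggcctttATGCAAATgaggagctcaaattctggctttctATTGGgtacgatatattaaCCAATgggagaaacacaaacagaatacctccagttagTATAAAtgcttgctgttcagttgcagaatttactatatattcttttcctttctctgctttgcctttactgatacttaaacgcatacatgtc
Hist2h2bb (chr3:96269450-96269749, plus strand): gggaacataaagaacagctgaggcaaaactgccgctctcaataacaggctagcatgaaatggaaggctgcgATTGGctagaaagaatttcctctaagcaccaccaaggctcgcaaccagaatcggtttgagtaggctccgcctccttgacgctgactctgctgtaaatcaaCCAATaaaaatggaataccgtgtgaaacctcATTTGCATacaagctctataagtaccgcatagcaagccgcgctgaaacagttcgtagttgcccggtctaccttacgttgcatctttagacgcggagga
Each of these promoters holds the octamer once and CCAAT on both strands, and that of Hist1h2ab also holds TATAAA. A match of letters is a description of the sequence, and binding was not measured.

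H2A and H2B genes often lie head to head, so that a promoter region serves both. Among the members with a RefSeq promoter, 5 such neighbour pairs were found. Hist1h2bf and Hist1h2ad form 1, for which no values are set side by side because Hist1h2ad was well above background on 5 of 15 arrays only. Hist1h2bq and Hist1h2ao form another, with fitted changes of -0.82 and -1.16 with DSS, and 2.15 and 0.99 with filgotinib. In the pair Hist1h2bn and Hist1h2ak the changes with DSS were 0.13 and -0.40, and those with filgotinib 0.34 and 0.46. In that pair Hist1h2ak fell and Hist1h2bn did not pass with DSS (limma adjusted p = 0.022 and 0.57). Hist1h2ae and Hist1h2bg had -0.38 and -0.35 with DSS and 0.61 and 0.87 with filgotinib, none called. Hist1h2ba and Hist1h2aa had 0.05 and -0.41 with DSS and 0.35 and 0.40 with filgotinib, and only Hist1h2aa was called. The probes of Hist1h2ak, Hist1h2ao, Hist1h2bq and Hist1h2aa may each read several genes.

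The genes that accompany histone synthesis were compared from lists written with earlier results of these data known. For this and the lists below, the shares over all probes were 8.78% falling and 8.72% rising with DSS. With filgotinib they were 5.58% rising and 4.28% falling against DSS vehicle, and 4.56% higher and 4.06% lower against water. Of 14 S-phase and proliferation genes, 13 fell with DSS, with a median log2 change of -1.26, and Tyms did not pass. With filgotinib against DSS vehicle 2 of 14 rose, at a median of 0.29. These were the proliferation marker Mki67 (1.15 ± 0.28 SE, limma adjusted p = 0.02) and the topoisomerase Top2a (0.94 ± 0.25 SE, limma adjusted p = 0.0309). Against water 7 of 14 were still lower with filgotinib, among them Mcm2, Mcm4, Mcm5, Mcm6, Mcm7 and Pcna. Of these, the replicative helicase subunit Mcm6 had -1.92 ± 0.37 SE with DSS, 0.24 ± 0.37 SE with filgotinib against DSS vehicle and -1.68 ± 0.37 SE against water (limma adjusted p = 0.00395, 0.721 and 0.0194). The difference in behaviour between these genes and the members was not tested.

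Of 9 measured cyclin E and E2F genes, which drive entry into S phase, 6 fell with DSS, 1 rose with filgotinib against DSS vehicle and 3 were lower than water with filgotinib. The riser was the S-phase cyclin Ccna2 (1.05 ± 0.29 SE, limma adjusted p = 0.0344), while the transcription factor E2f1 had -1.23 ± 0.33 SE with DSS and -1.31 ± 0.33 SE against water with filgotinib (limma adjusted p = 0.0195 and 0.0282). Of 22 histone chaperones, 12 fell with DSS and 3 were lower than water with filgotinib. The CAF-1 subunits Chaf1a and Chaf1b, which place new H3 and H4 on replicating DNA, had -1.69 and -1.29 with DSS and -1.49 and -1.19 against water with filgotinib on the log2 scale (limma adjusted p = 0.00624, 0.00222, 0.025 and 0.0114).

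Of 14 genes for histone transcription and mRNA processing, 2 fell with DSS. These were Slbp, the stem-loop binding protein, and Eri1, an exonuclease that trims the stem-loop, and both were also lower than water with filgotinib. With filgotinib against DSS vehicle no gene of this list passed, and the lowest limma adjusted p was 0.0545, for Zfp473, a protein of the histone pre-mRNA processing machinery. Slbp changed by -0.39 ± 0.10 SE with DSS, -0.04 ± 0.10 SE with filgotinib against DSS vehicle and -0.43 ± 0.10 SE against water (limma adjusted p = 0.0135, 0.834 and 0.0197). Of 15 measured histone variants without a Hist1 to Hist4 name, 6 fell and 2 rose with DSS, and 6 rose with filgotinib against DSS vehicle. The 6 that rose with filgotinib were H1f0, H2afx, H2afz, H2afv, H2afj and Cenpa. H2afx, the H2A phosphorylated at DNA breaks, changed by -0.81 ± 0.12 SE and 0.64 ± 0.12 SE (limma adjusted p = 0.000915 and 0.00715), and Cenpa, the centromeric H3, by -1.24 ± 0.25 SE and 1.28 ± 0.25 SE (limma adjusted p = 0.00477 and 0.00809). For H3f3a and H3f3b, the H3 made outside S phase, 0.06 and -0.11 with DSS and 0.08 and 0.17 with filgotinib did not pass.

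**Figure D4:**
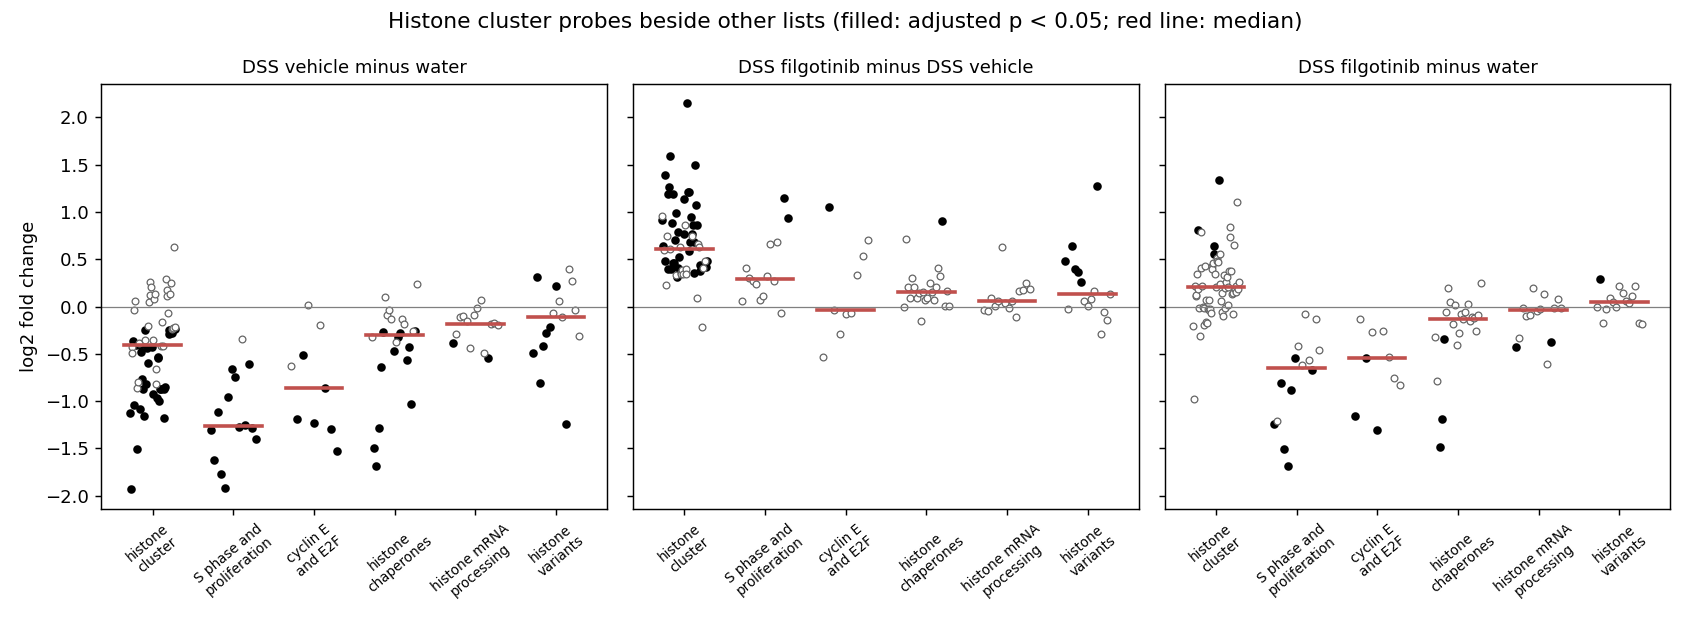
Fitted log2 fold change (vertical axis) of the 63 histone cluster probes beside genes of 5 lists, in the 3 comparisons. Filled points passed an adjusted p under 0.05 and red lines are medians. The S-phase list stays below 0 in the comparison of filgotinib with water, at a median of -0.65, while the histone median is 0.21.

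Markers of the cells the mucosa can hold are given because some moved with the groups. The summed level of the 9 epithelial markers was 10.3 to 10.5 in water mice, 10.6 to 10.8 in DSS vehicle mice and 10.5 to 10.7 in DSS filgotinib mice on the log2 scale, so that it was highest in DSS vehicle. Of these, Krt8, Muc2 and Car1 rose and the crypt stem-cell gene Lgr5 fell with DSS, and Lgr5 was well above background in 5 water arrays and in 0 of both other groups. Lgr5 was called lower than water with filgotinib too. It passed the detection filter only through the water group, where it is high, so its calls support nothing. The 6 neutrophil markers measured of 8 summed to 7.32 to 7.54 in water, 7.60 to 7.73 in DSS vehicle and 7.43 to 7.53 in filgotinib mice, with 2 rising with DSS and 1 falling with filgotinib. For T and NK cells (6 of 9 measured) the sums were 1.85 to 2.21, 2.08 to 2.51 and 1.97 to 2.26, and for B and plasma cells (8 of 9) 5.67 to 5.92, 5.79 to 6.09 and 6.01 to 6.21. The 8 macrophage and monocyte markers summed to 6.34 to 6.54, 6.61 to 7.001 and 6.17 to 6.82. Fibroblast markers, 6 of 6, ranged from 1.82 to 4.59, 3.48 to 5.94 and 0.65 to 5.64, and smooth muscle, 6 of 6, from 4.51 to 4.95, 4.84 to 6.60 and 4.67 to 5.53. The part of cell composition in the histone changes was not tested.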

How the data were processed

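Gene expression in colon mucosa of 15 mice was measured on 1-colour Agilent arrays. Per the file headers, each scanner file holds the authors' intensity of every spot, to which Agilent Feature Extraction 11.5.1.1 applied background subtraction and spatial detrending, but nothing between arrays, beside marks for signal above background, saturation and outliers, which are yes-or-no values. The deposited log2 table of the series, with 32349 probes, served as an alternative. The normalization behind it is not given in the sources used here, and its columns correlated with their own array at a lowest r of 0.9988 across probes. The submitters' processing notes also name limma.

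From the intensity, log2 of the processed signal minus the log2 of each array's 75th percentile was computed over 56504 probes, after averaging spots and leaving out control spots and 101 probes with an outlier mark. No spot was saturated. Detection well above background on 5 or more of 15 arrays was required, which left 33466. Groups were compared with limma 3.58.1 in R 4.3.3, in a single two-sided fit over all arrays with Benjamini-Hochberg adjustment over all probes and a threshold of 0.05. The number of arrays limits the precision. A change is given as log2 fold change with its SE, and a fold is its size on the linear scale. All 68 candidate probes matched RefSeq names, 52 by accession and 16 by synonym.

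The members and the gene lists were chosen with earlier results of these data known. Members named with values are, per comparison, the 10 called members that rose most and the 10 that fell most, the 2 brightest of each class, genes whose probes disagree, and those at the detection threshold. Hist1h2ba, Hist1h2bm, Hist1h2bn, Hist1h3a, Hist1h3i, Hist1h4h, Hist1h4i, Hist1h4m, Hist2h2ab, Hist2h2be, Hist2h3c1, Hist2h3c2 and Hist3h2a were added after their values were seen. So were the brighter Hist1h1d probe, the dimmer Hist3h2ba probe, and the promoter and neighbour examples. From the lists, called genes are named by size of change, and Tyms, Zfp473, H3f3a and H3f3b were added likewise. Alternatives covered scaling, background correction, the detection filter, the deposited table, 1 probe per gene, slide, scan day, replicate number, the arrays in the fit, the variance prior and leaving out each mouse.

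Simulated data over 33466 probes, with 50 probes changed per fold, tested the fit. In DSS vehicle against water it recovered 62% of 1.5-fold and 78% of 2-fold changes and called 8 unchanged probes. For filgotinib against DSS vehicle these shares were 42% and 82%, with 6 unchanged called, and for filgotinib against water 42% and 86% with 12. Some results on the comparison gene lists are not reported here.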

Additional observations from a re-analysis of the deposited data

Results flagged for a closer look

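Values that stood far from the other 4 mice of their group, by Dixon's test at 0.71, numbered 9 among 93 groups of values tested, where chance gives about 1 in 20. DSS vehicle mouse 3, alone on its slide, was high for the stem-loop probe of Hist2h2bb (0.52), for Hist1h2ah (7.61) and for Hist1h3c (2.12). DSS filgotinib mouse 1 was low for Hist1h2aa (7.30) and Hist1h3c (2.13), and high for the dimmer Hist1h1d probe (-1.47). DSS filgotinib mouse 4 was low for Hist1h1e (2.87), and water mouse 4 was high for Hist1h1t (-2.82). DSS filgotinib mouse 3, also alone on its slide, had the lowest median over the 63 members of its group (0.0784).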

How the results depend on the processing

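The fall with DSS and the rise with filgotinib against DSS vehicle kept their direction under all alternatives, and their counts stayed within 1.5 times except with slide as a fixed block. With that block, 1 member fell and 1 rose with DSS, at a median of -0.23 (the same median as within slide 4). With filgotinib 23 rose, beside 307 of all 33466 probes. That fit compares DSS vehicle and water within slide 4 only, which has fewer mice, and over all probes it made 32 calls up and 57 down in this comparison. With slide as a random block 29 fell and 42 rose, beside 2585 and 1875 of all 33466 probes.

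The count of 4 members above water with filgotinib depended on the setting. It was 0 with median scaling, with slide as a fixed block, with the replicate block and with only the arrays of the groups compared. It was 1 with quantile normalization and with slide as a random block, 2 with normexp and with the deposited table, and 8 of all 68 candidate probes without a detection filter, 7 of them members, where the median of all probes was 0.14. Without a detection filter, with detection required on all arrays, with scan day as a block and with an intensity trend, 1 member was called lower than water with filgotinib, and it was Hist1h1b each time. The median for filgotinib against water was 0.42 with the fixed slide block. For filgotinib against DSS vehicle the median was 0.44 with normexp and 0.74 with scan day as a block, under which 1 member, Hist1h4h, was called lower. The cause of these shifts was not tested.

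Leaving out each mouse in turn gave 26 to 34 members lower and 0 higher with DSS, at medians from -0.48 to -0.37, and 35 to 45 higher and 0 to 1 lower with filgotinib against DSS vehicle, at medians from 0.51 to 0.69. Against water it gave 0 to 9 higher and 0 to 1 lower, at medians from 0.17 to 0.25, with 0 higher without filgotinib mouse 1, 4 or 5 or water mouse 2 or 5, and 9 without filgotinib mouse 3. Same-numbered mice of different groups had correlations of deviations from -0.47 to 0.50 with a median of -0.05. For mice with different numbers they ran from -0.47 to 0.55 with a median of 0.01. These values gave no sign of pairing by number, but so few mice cannot exclude it. With the replicate block 26 members fell with DSS and 37 rose with filgotinib, beside 2459 and 1182 of all 33466 probes. Over the named members and their alternatives, 2323 values kept their call, 128 lost it, 36 gained one and 0 turned sign with a call.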
